A study of Mus musculus with 14 samples.

Results

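The 10 genes studied here belong to the machinery for endoplasmic reticulum (ER)-associated degradation, ERAD, and were followed in mouse liver across 2 genotypes and 2 treatments. They were taken from a named list that holds the ligase complex (Syvn1, Sel1l, Herpud1), the derlins (Derl1, Derl2, Derl3) and the genes that trim or read mannose (Edem1, Edem2, Edem3, Os9). All 10 were among the 24411 genes named in the count files, and all 10 passed the filter on low counts that left 9644 genes for testing. Derl3 passed this filter only through the tunicamycin-treated samples of the WT group described below, where it was highest. The samples were livers of male littermates aged 5 to 7 months. Every mouse carried floxed Rbbp5 alleles, Rbbp5 (flox/flox). The WT group lacked the Cre transgene, Alb-CRE (-/-), and the LKO group carried it, Alb-CRE (+/-). Alb-CRE is driven by the albumin promoter and recombines in hepatocytes. Cells of an LKO liver in which that promoter was never active keep Rbbp5. Rbbp5 encodes a core subunit of the COMPASS family of histone H3K4 methyltransferases. Mice of each genotype received an intraperitoneal injection of tunicamycin, which blocks N-linked glycosylation and so stresses the ER, at 0.05 mg/kg in 500 µl of 3% DMSO in PBS, or of the DMSO and PBS vehicle. Livers were taken 8 h later. Of the 14 libraries, 6 were WT (3 with each treatment) and 8 were LKO (4 with each treatment). The libraries labelled LKO vehicle 3 and 4 were close to counting error of each other, with a chi-square of 1.12 per degree of freedom against 3.38 to 25.9 in the other 17 pairs within groups. Their reads were summed and counted as 1 sample, called LKO vehicle 3 below, which left 13 samples.

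ERAD removes proteins that fail to fold in the ER. In the best known route, EDEM proteins trim mannose from the glycans of a misfolded glycoprotein, the lectin OS9 reads the trimmed glycan and hands the substrate to SEL1L, and the ubiquitin ligase HRD1, encoded by Syvn1, marks it while it passes through a channel that HRD1 forms with derlins. The ATPase VCP then pulls the substrate into the cytosol for the proteasome. Many of these genes are known targets of the unfolded protein response, in which the factors ATF6 and XBP1 bind ER stress elements in promoters, and which is well known in secretory cells such as hepatocytes.

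Derl3, Syvn1 and Sel1l, which passed the test in at least 1 comparison below, and Herpud1, the other gene of the ligase complex, are shown with the 200 bases before their RefSeq start, so that their promoters can be read beside their levels. RefSeq promoter windows (build GRCm38.p6, 250 bases before to 50 after the start) were matched by symbol for 9 of the 10 genes (all but Derl1), in 10 windows. Capitals mark the ends of ER stress element I, which is CCAAT and CCACG with 9 bases between them on either strand, or of element II, which is ATTGG and CCACG with 1 base between them. The Derl3 stretch is chr10:75893198-75893397 on the + strand, the Syvn1 stretch chr19:6046376-6046575 on the + strand, the Herpud1 stretch chr8:94386229-94386428 on the + strand and the Sel1l stretch chr12:91849158-91849357 on the - strand, each written 5′ to 3′ along the gene.
Derl3: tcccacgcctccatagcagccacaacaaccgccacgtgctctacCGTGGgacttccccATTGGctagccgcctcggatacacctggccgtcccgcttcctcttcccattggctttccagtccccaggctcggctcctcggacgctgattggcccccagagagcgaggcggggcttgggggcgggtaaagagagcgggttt
Syvn1: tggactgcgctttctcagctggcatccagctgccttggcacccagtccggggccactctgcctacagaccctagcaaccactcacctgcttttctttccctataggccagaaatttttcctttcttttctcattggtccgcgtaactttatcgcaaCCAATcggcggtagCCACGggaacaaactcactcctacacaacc
Herpud1: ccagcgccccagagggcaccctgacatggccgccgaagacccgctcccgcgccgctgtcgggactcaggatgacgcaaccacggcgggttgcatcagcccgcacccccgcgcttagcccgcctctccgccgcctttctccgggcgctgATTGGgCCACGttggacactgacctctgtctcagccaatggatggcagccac
Sel1l: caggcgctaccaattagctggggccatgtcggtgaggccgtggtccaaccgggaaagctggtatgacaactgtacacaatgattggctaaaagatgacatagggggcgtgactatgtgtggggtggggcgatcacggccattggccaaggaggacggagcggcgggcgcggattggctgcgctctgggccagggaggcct
Element I was found in the Derl3 window, on the opposite strand from 156 to 138 bases before the start, and in the Syvn1 window, on the gene's strand from 44 to 26 bases before it. Of all 32851 promoter windows of this length, 39 (0.119%) held element I. Element II was found in the Herpud1 window, from 52 to 42 bases before the start, and in 12 windows (0.0365%) overall. The motif TGACGTGG was in none of the 10 windows and in 222 (0.676%) of all. TGATGNAA was in the Herpud1 window, on the opposite strand from 112 to 105 bases before the start, and in 1304 windows (3.97%) overall. It does not overlap element II. No window of Sel1l or of the other matched genes held any of these motifs in full, which says only that the full motifs are not in these 300 bases. A match describes letters and is no evidence of binding.

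Reads on the gene's strand numbered 6507018 to 13519421 per library. The ribosomal RNA gene Rn45s took 72.5 to 75.5% of them, which left 1704479 to 3551398 reads for the other genes. Rbbp5, the deleted gene, was at 4.07, 6.41 and 5.10 CPM (reads scaled to a common library size) in WT vehicle and 5.37, 5.03 and 5.71 CPM in WT tunicamycin. It was at 4.15, 1.90 and 2.79 CPM in LKO vehicle and 2.80, 3.12, 3.46 and 2.06 CPM in LKO tunicamycin. LKO tunicamycin samples were all below WT tunicamycin samples, and the library labelled LKO vehicle 1 was within the WT vehicle range. The fitted LKO against WT log2 difference was -0.87 ± 0.26 (SE, adjusted p = 0.330) with vehicle and -0.90 ± 0.25 (adjusted p = 0.105) after tunicamycin. The labels do not say which exons are deleted, so reads outside them may be counted. Hepatocyte markers (6 of 6 found, Alb among them) summed to 13400 to 23400 CPM over all samples. Over all genes, WT tunicamycin 3 stood apart in its group, with a chi-square per degree of freedom of 25.9 and 25.8 against samples 1 and 2, which were at 6.23 from each other. In LKO vehicle, sample 2 was at 13.1 to 16.5 from the other libraries. In several ERAD genes WT tunicamycin 2 was the sample apart. Without WT tunicamycin 3, 615 genes were called for tunicamycin in WT, against 35 with all samples and 34 without WT tunicamycin 2. Calls that change without WT tunicamycin 2 or 3 are named below.

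The first question was what tunicamycin did to these genes in WT liver. Derl3 and Sel1l rose and passed the test, and all 10 genes had a fitted log2 fold change above 0. The fold was 18.5 for Derl3 and 1.76 for Sel1l. Syvn1, Edem1 and Derl1 were 2.64-fold, 1.44-fold and 1.40-fold higher without passing, and Derl2 and Edem2 stayed within 1.06-fold. So 2 of 10 were called, beside 0.290% of all genes tested that were called higher. Derl3, 1 of these 2, was tested only because of the WT tunicamycin samples, so its call adds no support to this count. For 6 of 10 (Sel1l, Edem1, Edem3, Derl1, Derl3 and Os9), the WT tunicamycin samples were all above the WT vehicle samples, beside 8.63% of all genes tested. Of the 10, 7 had an unadjusted p under 0.05, beside 14.8% of all genes. The median log2 fold change was 0.447 over the 10 genes and 0.0141 over all genes. When libraries were scaled to their total counts, 8 of 10 were higher and Derl2 and Edem2 were at -0.15 and -0.10. That scaling put the median of all genes at -0.177, and all 10 ERAD genes were above it. DESeq2 called 4 of the 10 (Syvn1, Sel1l, Edem1 and Derl1), beside 153 of 16249 genes, and gave no adjusted p for Derl3. With limma on log2(FPKM + 1), 0 were called, beside 3 of 9619 genes, and 5 had an unadjusted p under 0.05.

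**Figure D1:**
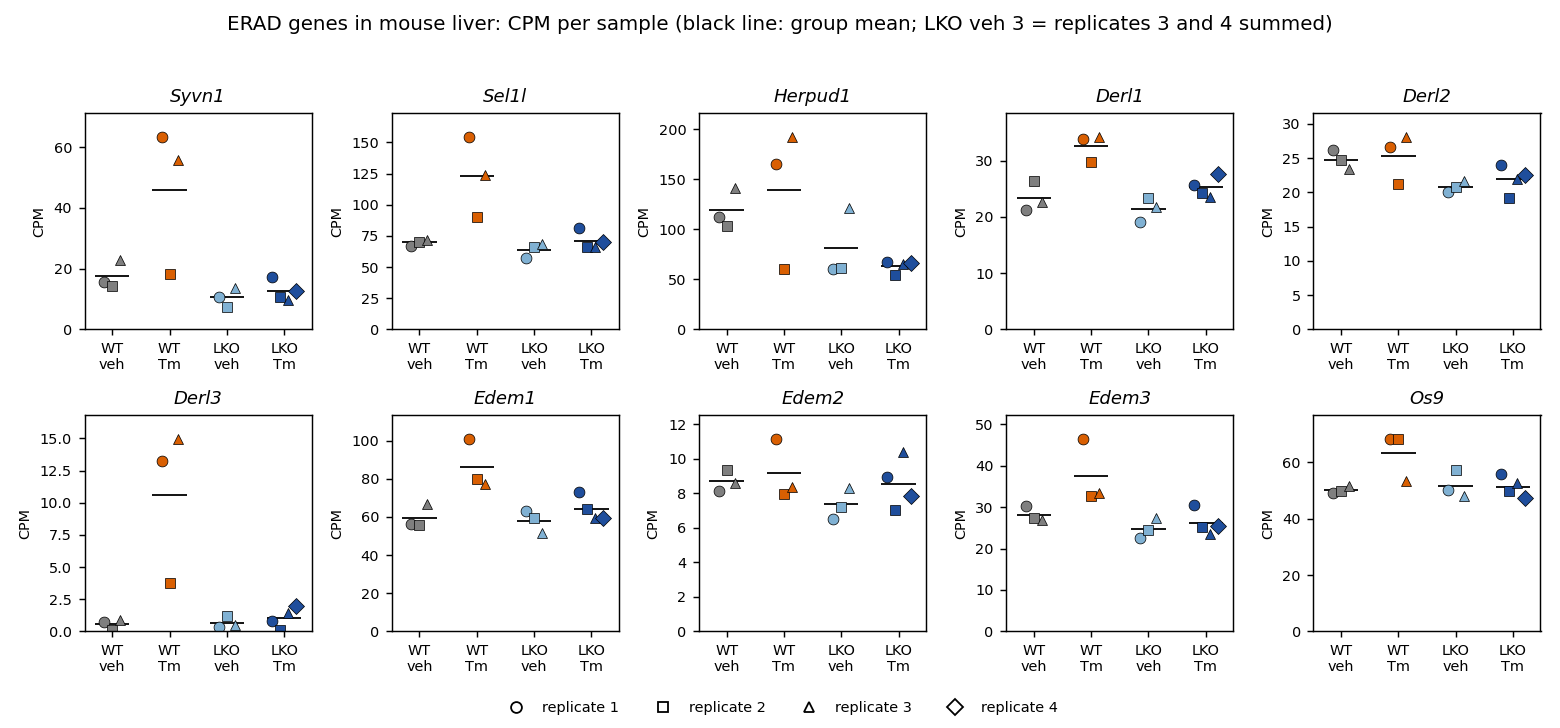
Each panel plots the CPM (linear axis from 0) of an ERAD gene in each of the 13 samples, as points by group, with the group mean as a line. Derl3 is below 2 CPM in all samples except the 3 WT tunicamycin samples, at 3.73 to 15.0 CPM.

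Within the ligase complex, Syvn1 encodes the ubiquitin ligase HRD1. It was at 15.4, 14.4 and 22.7 CPM in WT vehicle and 63.4, 18.3 and 55.7 CPM in WT tunicamycin. WT tunicamycin 1 and 3 were well above every vehicle sample, while WT tunicamycin 2 lay inside the vehicle range. The log2 fold change was 1.40 ± 0.34 (SE) and the adjusted p 0.0822. Without WT tunicamycin 2 it was 1.77 and was called, and it was also called with no filter on low counts. Sel1l encodes the adaptor that holds HRD1 and its lectins together. Its level was 67.1, 70.3 and 71.9 CPM with vehicle and 155, 90.5 and 124 CPM after tunicamycin. The groups did not overlap, and the vehicle samples were close together (coefficient of variation 3.52%). The log2 fold change was 0.82 ± 0.16 and the adjusted p 0.0399. Its call was lost in 8 of the 13 fits that each left out a sample, namely those without WT tunicamycin 1, without any of the WT vehicle samples and without any of the LKO tunicamycin samples. It was also lost with total count scaling and with the compared groups only. Herpud1 encodes a membrane protein that binds HRD1 and is among the best known stress-induced ERAD genes. It was at 113, 103 and 142 CPM with vehicle and 165, 60.6 and 192 CPM after tunicamycin. WT tunicamycin 2 was below every vehicle sample and the other treated samples were above them. The log2 fold change was 0.23 ± 0.32 (adjusted p = 0.800). It was 0.59 without WT tunicamycin 2, -0.08 without WT tunicamycin 3 and 0.09 without WT tunicamycin 1, and was called in none of these fits.

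Among the derlins, Derl3 was nearly silent with vehicle and Derl1 and Derl2 were not. Derl3 held 6, 1 and 6 reads in the WT vehicle samples (0.718, 0.128 and 0.875 CPM) and 96, 23 and 97 reads after tunicamycin (13.2, 3.73 and 15.0 CPM). All treated samples were above all vehicle samples, although they spread with a coefficient of variation of 56.9%. The log2 fold change was 4.21 ± 0.63 and the adjusted p 0.0158, ranked 3 by p of the 9644 genes. Its size rests on 13 reads in all in the vehicle group. Derl3 passed the filter on low counts only through the WT tunicamycin samples, so it was tested only because of the group where it was highest. The call was lost without WT tunicamycin 1 or without any of the 3 WT vehicle samples, with log2 fold changes from 3.72 to 4.61 over all 13 such fits. Derl1 was at 21.2, 26.4 and 22.6 CPM with vehicle and 33.9, 29.8 and 34.3 CPM after tunicamycin, with no overlap. The log2 fold change was 0.48 ± 0.12 (adjusted p = 0.0913). Derl2 was at 26.1, 24.7 and 23.5 CPM with vehicle and 26.6, 21.2 and 28.1 CPM after tunicamycin. Its treated samples lay on both sides of the vehicle range (0.03 ± 0.13, adjusted p = 0.936).

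None of the genes that trim or read mannose was called. Edem1, the founding EDEM gene, was at 56.3, 56.0 and 66.9 CPM with vehicle and 101, 80.1 and 77.2 CPM after tunicamycin. The groups did not overlap, and the log2 fold change was 0.53 ± 0.14 (adjusted p = 0.0966). It was called only in the fit without WT tunicamycin 3 among the 13 that left out a sample. Edem3 was at 30.2, 27.4 and 27.0 CPM with vehicle and 46.5, 32.6 and 33.3 CPM after tunicamycin, again with no overlap (0.41 ± 0.15, adjusted p = 0.194). Os9, which encodes the lectin that reads trimmed glycans, was at 49.1, 49.8 and 51.7 CPM with vehicle and 68.4, 68.3 and 53.4 CPM after tunicamycin. Its groups were separated by a narrow gap (0.34 ± 0.12, adjusted p = 0.211), and it was called without WT tunicamycin 3. Edem2, at 8.14, 9.35 and 8.60 CPM against 11.1, 7.94 and 8.34 CPM, overlapped (0.08 ± 0.18, adjusted p = 0.879).

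Tunicamycin was next compared with vehicle in LKO liver. None of the 10 genes was called by edgeR or by DESeq2, and none had an unadjusted p under 0.05 with either tool. Over all genes tested, 0.0311% were called and 12.2% had an unadjusted p under 0.05. Fitted values were above 0 for 8 genes and below 0 for 2, Herpud1 and Os9, with a median log2 fold change of 0.144. The only gene whose treated samples were all above the vehicle samples was Derl1, beside 5.03% of all genes tested.

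Syvn1 was at 10.7, 7.52 and 13.5 CPM in LKO vehicle and 17.3, 10.5, 9.68 and 12.7 CPM in LKO tunicamycin. Only LKO tunicamycin 1 exceeded the vehicle range (0.23 ± 0.34, adjusted p = 0.841). Sel1l was at 57.2, 66.2 and 68.8 CPM with vehicle and 81.7, 66.0, 66.3 and 70.0 CPM after tunicamycin, and the groups overlapped (0.15 ± 0.15, adjusted p = 0.770). Herpud1 was at 60.4, 61.2 and 121 CPM with vehicle and 67.6, 53.9, 65.3 and 66.6 CPM after tunicamycin. All 4 treated samples were below the vehicle mean, which LKO vehicle 3 raised (-0.36 ± 0.30, adjusted p = 0.693, and 0.06 without LKO vehicle 3). Derl3 held 3, 16 and 8 reads with vehicle and 6, 1, 14 and 18 reads after tunicamycin, or 0.355, 1.17 and 0.475 CPM against 0.799, 0.13, 1.43 and 1.95 CPM. These counts overlapped, and the fitted log2 fold change was no larger than its SE (0.70 ± 0.70, adjusted p = 0.760). Derl1 was at 19.2, 23.4 and 21.7 CPM with vehicle and 25.7, 24.3, 23.6 and 27.7 CPM after tunicamycin (0.24 ± 0.11, adjusted p = 0.421). Derl2 lay between 19.1 and 24.0 CPM over both LKO groups, Edem1 between 51.7 and 72.9, Edem2 between 6.52 and 10.4, Edem3 between 22.6 and 30.5 and Os9 between 47.2 and 57.3 CPM, with fitted log2 fold changes of 0.07, 0.14, 0.21, 0.07 and -0.01.

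**Figure D2:**
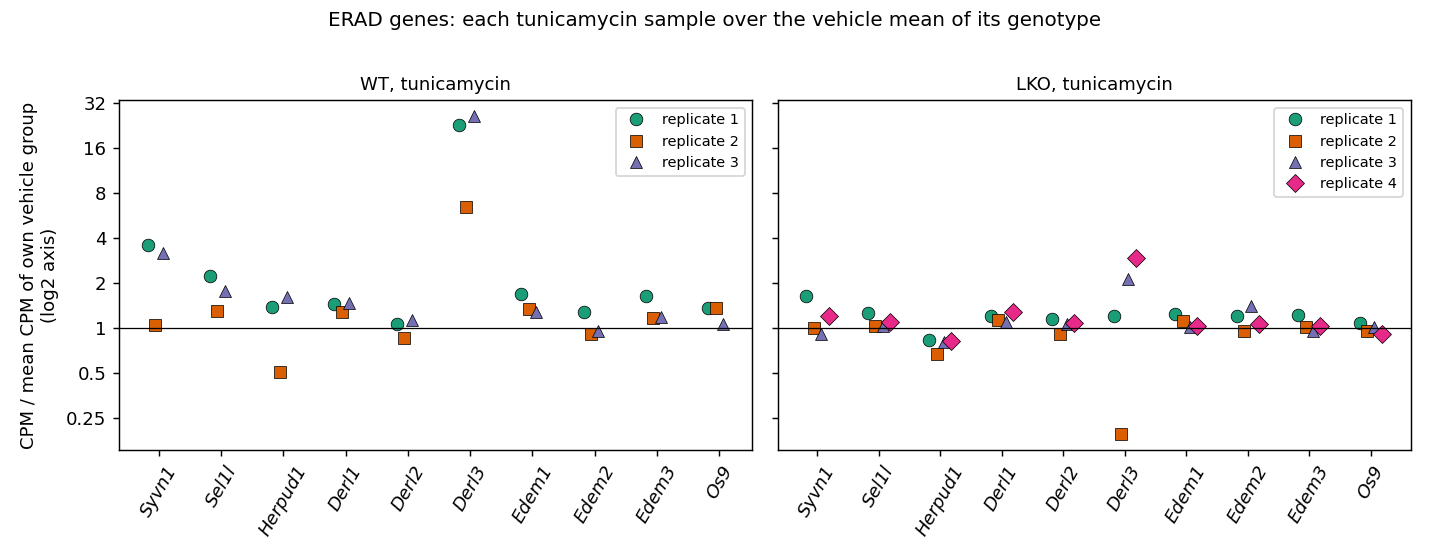
Each point is the CPM of an ERAD gene (horizontal axis) in a tunicamycin sample (marker shape) divided by the vehicle mean of its genotype, on a log axis with a line at 1, for WT and LKO. In WT tunicamycin 1, all 10 genes were above the vehicle mean, and in LKO tunicamycin 2, 4 of 10 were.

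The samples of each treated group differed among themselves. Each was set against the vehicle mean of its genotype as a ratio of CPM. WT tunicamycin 1 had 10 of 10 genes above that mean (median ratio 1.55), WT tunicamycin 3 had 9 (1.38) and WT tunicamycin 2 had 7 (1.22). The LKO tunicamycin samples 1 to 4 had 9, 4, 7 and 8 above it, with median ratios of 1.20, 0.98, 1.03 and 1.07. WT tunicamycin 2 differed from the other WT treated samples mostly in the ligase genes and Derl3. Its ratios were 0.509 for Herpud1, 1.05 for Syvn1, 1.30 for Sel1l and 6.50 for Derl3. The ratios for Syvn1, Sel1l and Derl3 were 3.62, 2.22 and 23.0 in WT tunicamycin 1 and 3.18, 1.78 and 26.1 in WT tunicamycin 3. The spread in WT tunicamycin followed, with coefficients of variation of 49.9% for Herpud1 and 52.7% for Syvn1. The hepatocyte marker sum of WT tunicamycin 2 was the highest of all samples, at 23400 CPM. The part of this in the low ERAD values was not tested.

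The genotypes were then compared with vehicle alone. No ERAD gene was called by edgeR or DESeq2 (1 had an unadjusted p under 0.05 with DESeq2 and 0 with edgeR), beside 0.0415% of all genes tested that were called. Fitted values were below 0 for 8 genes and above 0 for 2, Derl3 and Os9, with a median of -0.151. The LKO samples of 2 genes, Syvn1 and Derl2, were all below the WT samples, beside 7.58% of all genes tested. Syvn1 was at 7.52 to 13.5 CPM in LKO and 14.4 to 22.7 CPM in WT vehicle samples (-0.71 ± 0.36, adjusted p = 0.619). Derl2 was at 20.02 to 21.7 CPM and 23.5 to 26.1 CPM (-0.25 ± 0.12, adjusted p = 0.618). The gap for Syvn1 was smaller than the SD of either group, and that for Derl2 was larger than both SDs. Herpud1 was at 60.4 and 61.2 CPM in LKO vehicle 1 and 2, below the WT range of 103 to 142 CPM, and at 121 CPM, inside it, in LKO vehicle 3 (-0.55 ± 0.32, adjusted p = 0.683).

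After tunicamycin, all 10 genes were lower in LKO than in WT liver, and Syvn1, Sel1l and Derl3 passed the test. These 3 are the ligase, its adaptor and the derlin that was nearly silent with vehicle. Their LKO to WT folds were 0.272, 0.577 and 0.106. So 3 of 10 were called, beside 0.550% of all genes tested that were called lower. Derl3, 1 of these 3, was tested only because of the WT tunicamycin samples, so its call adds no support to this count. For 6 of 10 (Syvn1, Sel1l, Edem1, Edem3, Derl1 and Derl3) every LKO sample was below every WT sample, beside 6.58% of all genes tested. Of the 10, 8 had an unadjusted p under 0.05, beside 15.8% of all genes, and the median log2 difference was -0.474. Scaled to total counts, 9 of 10 were lower and Edem2 was at 0.05. That scaling put the median of all genes at 0.14, and all 10 ERAD genes were below it. DESeq2 called 3 of the 10, which need not be the same 3, beside 130 of 16249 genes. With limma on log2(FPKM + 1), 0 were called, beside 73 of 9619 genes, and 5 had an unadjusted p under 0.05. This comparison shares the WT tunicamycin samples with the comparison within WT above, so the comparisons are not independent.

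**Figure D3:**
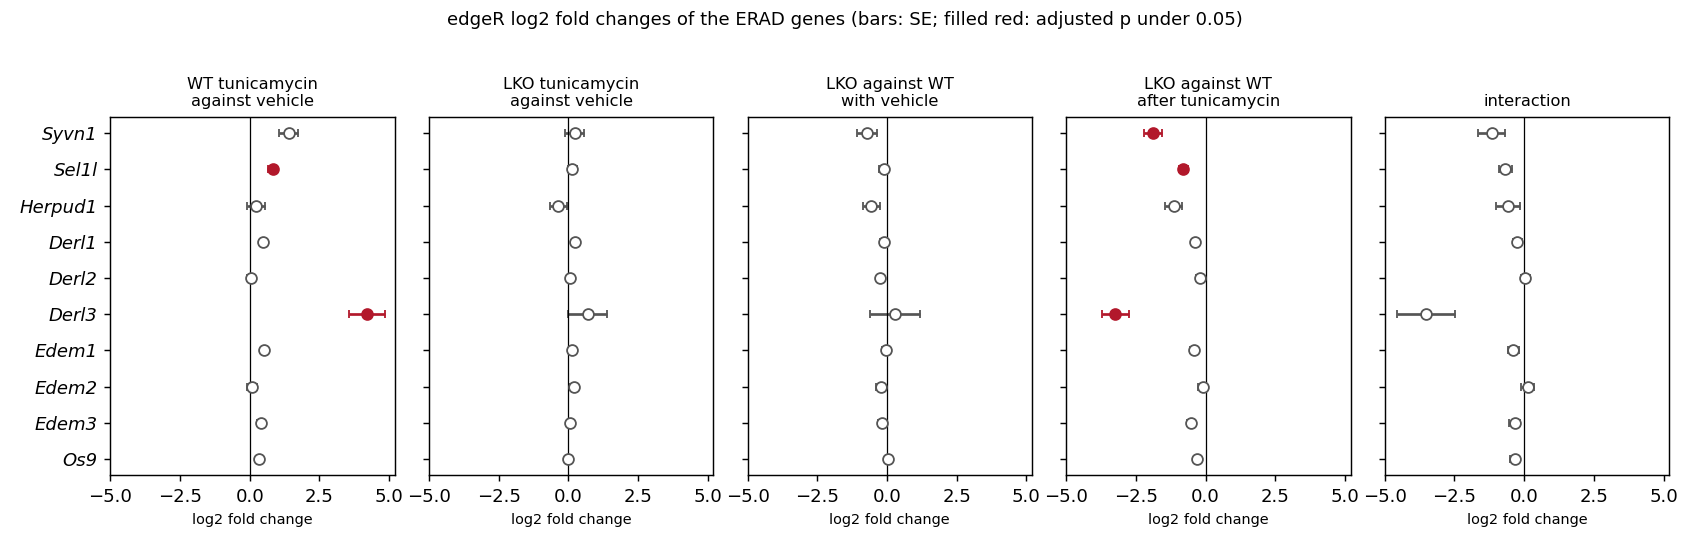
The log2 fold change (points) and its standard error (bars) of each ERAD gene are plotted for the 5 comparisons, with genes at an adjusted p under 0.05 filled. Derl3 is farthest from 0 in WT tunicamycin against vehicle (4.21) and in LKO against WT after tunicamycin (-3.23).

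For Syvn1, the 4 LKO tunicamycin samples lay at 9.68 to 17.3 CPM, below the WT tunicamycin samples at 18.3 to 63.4 CPM. The gap to WT tunicamycin 2 was 17.3 against 18.3 CPM, so the separation was narrow there. The log2 difference was -1.88 ± 0.32 and the adjusted p 0.0163, and the call was lost without WT tunicamycin 1 or LKO tunicamycin 3 or 4. Sel1l was at 66.0 to 81.7 CPM in LKO and 90.5 to 155 CPM in WT (-0.79 ± 0.15, adjusted p = 0.0240). Its call was lost without WT tunicamycin 1 or LKO tunicamycin 2, 3 or 4, and with total count scaling or the compared groups only. Derl3 was at 0.13 to 1.95 CPM in LKO and 3.73 to 15.0 CPM in WT, and the groups stood clear of each other. It was among the genes tested only through these WT samples. The log2 difference was -3.23 ± 0.50 and the adjusted p 0.0102, and the call was lost without WT tunicamycin 1 alone. With that sample left out, edgeR called 0 of the 10 genes and also 0 of all 9922 genes tested. Of the 10, 7 had an unadjusted p under 0.05 in that fit. The share over all genes in that fit is not given here, and the 15.8% above belongs to the fit with every sample.

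Herpud1 was at 53.9 to 67.6 CPM in LKO and at 165, 60.6 and 192 CPM in WT tunicamycin. The groups overlapped through WT tunicamycin 2 (-1.14 ± 0.30, adjusted p = 0.0832). Without that sample the difference was -1.49 and was called, and 5 of the 10 genes were called. Calls over all genes also rose in that fit, to 183 of 9951 from 83 of 9644. Herpud1 was also called without LKO vehicle 3. Edem3 (23.6 to 30.5 CPM against 32.6 to 46.5 CPM) gave -0.52 ± 0.14 (adjusted p = 0.0801), and was called without WT tunicamycin 2. Herpud1 and Edem3 were also called with no filter on low counts. Edem1 (59.4 to 72.9 CPM against 77.2 to 101 CPM) gave -0.43 ± 0.13 (adjusted p = 0.121). Derl1 (23.6 to 27.7 CPM against 29.8 to 34.3 CPM) gave -0.37 ± 0.11 (adjusted p = 0.137). These 3 were separated by sample but did not pass the test. Os9 (-0.30 ± 0.12, adjusted p = 0.217), Derl2 (-0.21 ± 0.12, adjusted p = 0.405) and Edem2 (-0.10 ± 0.17, adjusted p = 0.823) overlapped between genotypes.

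Markers of other liver cells were followed beside these differences. In tunicamycin samples, the 5 bile duct markers summed to 8.49 to 42.5 CPM in WT and 35.8 to 111 CPM in LKO. Most of this sum was Spp1 (mean 22.4 CPM in WT and 58.1 CPM in LKO). Sox9 had means of 4.5 and 3.92 CPM, and Krt19, Krt7 and Epcam were at most 0.831 CPM in any sample. Of the 2 bile duct markers tested, 1 had a fitted difference above 0 and 1 below. The 6 Kupffer cell markers summed to 49.9 to 63.3 CPM and 51.4 to 103 CPM, and the 6 stellate markers to 87.7 to 122 CPM and 101 to 158 CPM. Endothelial markers (69.5 to 73.2 CPM in WT, 63.3 to 77.9 CPM in LKO) overlapped. The hepatocyte sum, most of which is Alb, also overlapped (13400 to 23400 CPM in WT, 13600 to 17600 CPM in LKO), but 5 of its 6 markers had a fitted difference below 0. Of these Hnf4a, a hepatocyte transcription factor gene named here after its value was seen, was called lower, at 121, 119, 115 and 122 CPM in LKO and 183, 173 and 164 CPM in WT tunicamycin (-0.54 ± 0.12, adjusted p = 0.0405). The groups did not overlap. The call was kept in 4 of 13 fits that each left out a sample (those without WT tunicamycin 3 or any LKO vehicle sample) and was lost with total count scaling (-0.39) and with the compared groups only (-0.53). The 4 lymphocyte markers found were at most 0.711 CPM and the 3 pancreas markers at most 0.911 CPM in any sample. The 3 neutrophil markers found lay at 0.309 to 7.29 CPM in WT and 2.53 to 6.51 CPM in LKO. In the other comparisons, both neutrophil markers tested were higher after tunicamycin at an unadjusted p under 0.05, in WT (median log2 fold change 2.77) and in LKO (2.07), and 4 of 6 Kupffer cell markers were in LKO (median 0.505). The 2 bile duct markers tested were both higher after tunicamycin in WT (median 1.16). With vehicle, bile duct sums (17.4 to 55.2 CPM in LKO, 8.6 to 11.7 CPM in WT) and stellate sums (108 to 149 CPM in LKO, 62.9 to 104 CPM in WT) did not overlap between genotypes. The bile duct sums were again mostly Spp1 (mean 32.6 CPM in LKO, 6.96 CPM in WT). No marker of these 4 cell types was called in these comparisons. No listed marker was at 0 in all samples. The part of these levels in the ERAD differences was not tested, and fewer cells of a type cannot be told apart from less RNA per cell in whole liver.

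Whether the tunicamycin effect itself differed between genotypes was tested as an interaction. No ERAD gene was called by edgeR, beside 0% of all genes tested, or by DESeq2. With edgeR, 3 genes (Derl3, Sel1l and Syvn1) had an unadjusted p under 0.05, and 3 did with DESeq2, beside 4.91% of all genes with edgeR. The LKO minus WT difference of effects was -3.51 ± 1.03 on the log2 scale for Derl3, -0.67 ± 0.22 for Sel1l and -1.16 ± 0.48 for Syvn1, each with an adjusted p of 0.935. Edem1 (-0.39 ± 0.19), Os9 (-0.35 ± 0.17), Herpud1 (-0.58 ± 0.44), Edem3 (-0.34 ± 0.20) and Derl1 (-0.25 ± 0.17) were also below 0, and Edem2 (0.13 ± 0.24) and Derl2 (0.04 ± 0.17) above. A rise that passed the test in WT and not in LKO was therefore not shown to differ between them after adjustment over all genes.

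Levels between genes can be compared only per transcript length, as in the deposited FPKM values (fragments scaled to transcript length and library size). In WT vehicle liver Herpud1 was the most abundant of the 10, at 26.9 ± 4.03 FPKM (SD, n = 3). Sel1l, Os9 and Edem1 followed at 4.88 ± 0.192, 4.39 ± 0.303 and 4.32 ± 0.335 FPKM, and Os9 and Edem1 overlapped by sample. Derl1 was at 3.67 ± 0.184 FPKM, below the lowest Edem1 sample. Derl2 (2.64 ± 0.151 FPKM) overlapped Syvn1 (2.34 ± 0.639 FPKM), which overlapped Edem3 (1.87 ± 0.101 FPKM). Edem2 was at 1.36 ± 0.088 FPKM, and Derl3 was lowest at 0.200 ± 0.137 FPKM. In WT tunicamycin Derl3 was at 2.55 ± 1.62 FPKM, with samples from 0.693 to 3.63 FPKM, beside 2.37 ± 0.544 FPKM for Derl2. In LKO tunicamycin (n = 4) it stayed lowest, at 0.336 ± 0.254 FPKM. Herpud1 was at 14.4 ± 1.88 FPKM in LKO tunicamycin and 29.3 ± 14.3 FPKM in WT tunicamycin. The FPKM column of LKO vehicle 2 lists Rn45s at 0, unlike the others.

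**Figure D4:**
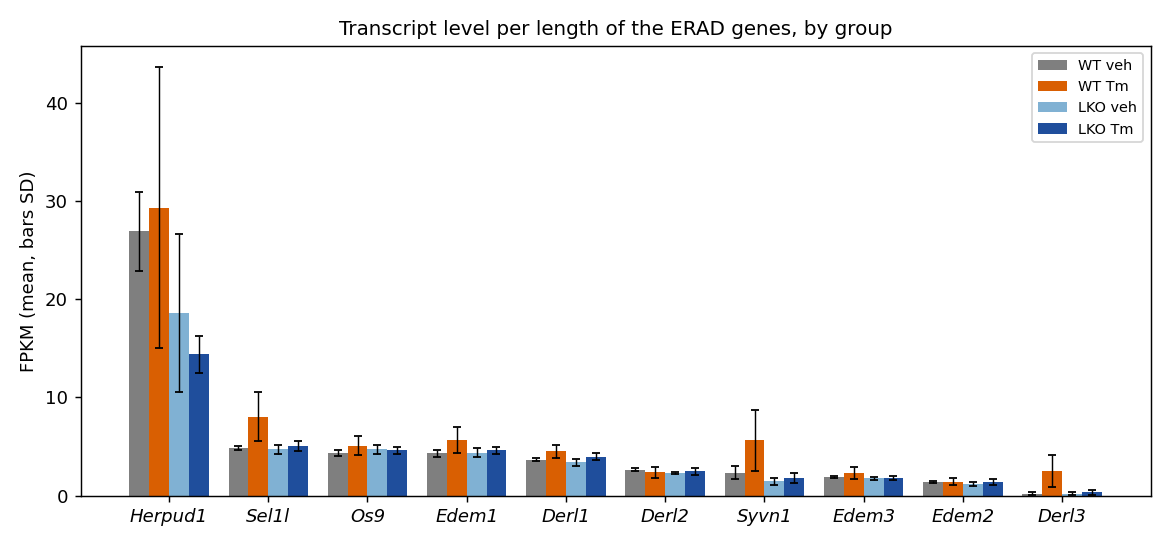
Bars show the mean FPKM (linear axis from 0) of each ERAD gene in the 4 groups, with the SD over samples as error bars (n = 3, and 4 for LKO tunicamycin). Herpud1 is highest in every group, at 14.4 to 29.3 FPKM, and Derl3 is lowest except in WT tunicamycin.

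The patterns of Syvn1, Sel1l and Derl3 across the 13 samples were compared with those of 9634 other genes, as the mean absolute difference of standardised log2 CPM. A value of 0 means the same pattern, and the median of all genes was 1.09 for Sel1l and Derl3 and 1.10 for Syvn1. The closest genes to Sel1l were Atp2a2, an ER calcium pump, at 0.17, the chaperone Hyou1 at 0.183 and the chaperone Hsp90b1 at 0.193. For Syvn1 they were the chaperone Hspa5 at 0.185, Creld2 at 0.209 and Manf at 0.216. For Derl3 they were the disulfide isomerase Pdia4 at 0.283, the autophagy receptor Sqstm1 at 0.296 and Hsp90b1 at 0.297. Among the 10 ERAD genes, Sel1l and Edem3 were the closest pair at 0.275, then Syvn1 and Sel1l at 0.309, and Herpud1 and Os9 were the farthest apart at 1.12. All genes in these comparisons share the same libraries and depth.

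A further 62 genes that act beside these 10 were taken as a list, of which 59 were tested. Tunicamycin in WT liver called 2 of the 59, Dnajb11 and Sdf2l1, both ER co-chaperone genes, beside 0.290% of all genes called higher. Dnajb11 was at 19.6, 22.3 and 23.9 CPM with vehicle and 49.3, 41.7 and 42.4 CPM after tunicamycin (1.02 ± 0.14, adjusted p = 0.00711). Sdf2l1 was at 5.27, 4.74 and 4.96 CPM with vehicle and 19.4, 10.9 and 18.1 CPM after tunicamycin (1.69 ± 0.28, adjusted p = 0.0170). Neither gene's groups overlapped. The Dnajb11 call was lost without WT tunicamycin 1 or WT vehicle 1 or 2, and the Sdf2l1 call without WT tunicamycin 1 or any WT vehicle sample. Fitted values were above 0 for 37 of 59, beside 51.7% of all genes, with a median log2 fold change of 0.0921. Under total count scaling 22 were above 0, and 36 above the shifted median of all genes. By role, a mixed list of lectin, glycan enzyme, reductase and co-chaperone genes stood highest, with 8 of 9 above 0 and a median of 0.379. Both called genes, Dnajb11 and Sdf2l1, are co-chaperone genes of that list, and none of its lectin, mannosidase or reductase genes was called. The other ligases and adaptors had 12 of 16 above 0 (median 0.0833), the extraction genes around the ATPase VCP 9 of 17 (0.145), the ubiquitin-conjugating enzymes 3 of 5 (0.0705) and the genes that carry substrates to the proteasome 5 of 12 (-0.0386).

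After tunicamycin, 47 of the 59 partner genes were lower in LKO than in WT and 12 were higher, beside 48% of all genes higher. The median was -0.137 over the 59, beside -0.0124 over all genes. With edgeR 2 were called, beside 0.550% of all genes called lower. DESeq2 called 4, beside 130 of 16249 genes called in either direction. Under total count scaling 29 of the 59 were lower, and 44 lay below the shifted median. Dnajb11 was at 31.3, 23.3, 23.5 and 26.3 CPM in LKO tunicamycin (-0.77 ± 0.13, adjusted p = 0.0149), below every WT tunicamycin sample. Its call was lost without WT tunicamycin 1 or LKO tunicamycin 3 or 4. Dnajb9, a co-chaperone that is a target of the XBP1 branch, was at 28.1, 18.6, 23.1 and 23.0 CPM in LKO and 83.7, 26.8 and 61.9 CPM in WT tunicamycin. WT tunicamycin 2 lay inside the LKO range (-1.31 ± 0.28, adjusted p = 0.0405), and the difference was -1.65 and called without that sample. The call was kept in 4 of 13 fits that each left out a sample (those without WT tunicamycin 2 or any LKO vehicle sample), and lost with total count scaling or the compared groups only. In LKO liver tunicamycin called 0 of 59 with edgeR and with DESeq2, and 3 had an unadjusted p under 0.05, beside 12.2% of all genes, with the smallest for Sdf2l1 (0.80 ± 0.25, adjusted p = 0.247), which was called with no filter on low counts. Between genotypes with vehicle both tools called 0 of 59, and 2 had an unadjusted p under 0.05, beside 8.15% of all genes, with the smallest for Yod1, a deubiquitinase gene (-0.40 ± 0.16, adjusted p = 0.524). The interaction called 0 with both tools, and 4 had an unadjusted p under 0.05, near the 4.91% of all genes, with the smallest for Dnajb11 (-0.71 ± 0.19, adjusted p = 0.935).

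**Figure D5:**
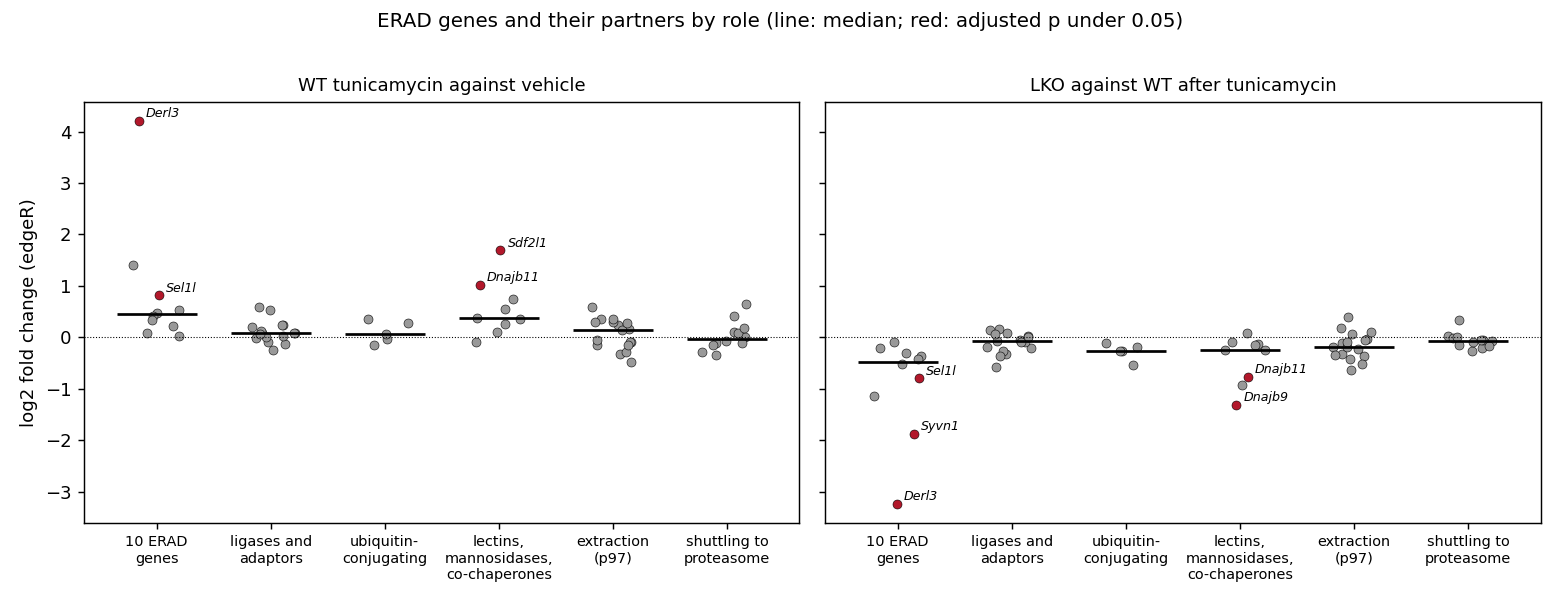
Points show the log2 fold change of the 10 ERAD genes and of the 59 tested partner genes by role (p97 is VCP, lines are medians), for tunicamycin against vehicle in WT and for LKO against WT after tunicamycin, with called genes marked. In the treatment comparison the mixed list of lectin, glycan enzyme, reductase and co-chaperone genes has the highest median (0.379) of the 5 partner roles.

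In the annotation of the build named by the submitters (mm10, GENCODE vM21), Derl3 lies at chr10:75893413-75895941 on the + strand, Sel1l at chr12:91806043-91849157 on the - strand and Syvn1 at chr19:6046576-6053712 on the + strand. Syvn1 overlaps Mrpl49 on the opposite strand and Mir6988 on its own, Derl2 overlaps Mis12 and Herpud1 overlaps Gm15890, both on the opposite strand. Reads on the gene's own strand were at least 96.8% of the stranded reads of each of the 10 genes, and only those reads were counted.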

How the data were processed

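Liver RNA, given as polyadenylated RNA per the labels' protocols, was sequenced from 14 libraries with Bio-Rad index primers and Element Biosciences circularisation. Rn45s nonetheless took 72.5 to 75.5% of the reads on the gene's strand, and how far polyadenylated RNA was selected was not tested. The submitters' processing notes name Trimmomatic, STAR, Cufflinks and the build mm10, and versions, settings and gene annotation are not given in the sources used here. The deposited counts are whole, unnormalised reads for each gene in STAR's layout of leading summary lines, per the file headers. The column that holds reads on the gene's strand was used (99.5 to 99.6% of stranded reads). The deposited FPKM values carry Cufflinks column names per the file headers. Of 24886 entries, 277 names that occur more than once were left out, and 9619 genes were shared with the count fit.

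Samples were grouped by the genotype and treatment labels, and no per-sample column was left unused. Counts were fitted with edgeR 4.0.16 (R 4.3.3) by TMM, filterByExpr and the quasi-likelihood test, with 1 mean per group, 9 residual degrees of freedom and a common biological coefficient of variation of 0.155. Adjusted p-values are Benjamini-Hochberg over the 9644 genes tested, and called means an adjusted p under 0.05. CPM used TMM library sizes with the Rn45s reads included, log2 CPM a prior count of 2, and errors of fitted values are SEs. The script was tested on simulated data. Alternatives were DESeq2 1.42.0, no filter on low counts, total count scaling, 14 libraries, compared groups only, a replicate block, each sample left out, and limma 3.58.1 on log2(FPKM + 1) or log2(FPKM + 0.1). A further FPKM fit without LKO vehicle 2 was chosen after seeing the data. Those fold changes are on the log2(FPKM + pseudocount) scale, which understates low genes.

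All 10 ERAD genes are named. Partner genes are named where called, or with the smallest p where none was. The genes and lists were chosen with earlier results of these data known, and nothing here is independent support for those results. Reads without molecular identifiers are not independent molecules. The labels do not tie libraries to mice or to a batch, so p-values measure the spread between samples. Marker lists followed were hepatocyte, Kupffer cell, endothelial, stellate, bile duct, lymphocyte, neutrophil and pancreas.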

Additional observations from a re-analysis of the deposited data

Results flagged for a closer look

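In LKO tunicamycin, Herpud1 was at 53.9 CPM in sample 2, apart from 67.6, 65.3 and 66.6 CPM in samples 1, 3 and 4, and its gap to the nearest sample exceeded Dixon's 95% limit for a group of 4. Only this group of 4 samples was examined, over the 10 ERAD genes, and chance flags about 1 in 20 groups.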

How the results depend on the processing

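For WT tunicamycin against vehicle, 2 of 10 ERAD genes were called. The count was 4 with DESeq2 (Syvn1, Sel1l, Edem1 and Derl1, with no adjusted p for Derl3), 1 with the compared groups only, 1 with total count scaling and 1 with the replicate block. Over all genes these fits called 153 of 16249, 7 of 8809, 148 of 9644 and 38 of 9644, against 35 of 9644 in the main fit. All 4 FPKM fits called 0 of the 10, and 0 to 3 of all genes. Leaving out each sample gave 0 to 4 of the 10. It was 0 without WT tunicamycin 1 or any WT vehicle sample, where 0 to 2 of all genes were called. It was 4 without WT tunicamycin 3, where 615 of 9941 were called. For LKO against WT after tunicamycin the count was 3, beside 83 of all 9644 genes. It was 5 with no filter (261 of 16251 over all genes). It was 2 with total count scaling (164 of 9644), the compared groups only (27 of 9191) or the block (32 of 9644), and Sel1l was lost in each. The FPKM fits called 0 of the 10, and 7 to 90 of all genes. Leaving out each sample gave 0 to 5, with 1 without LKO tunicamycin 3 or 4 (12 and 14 of all genes). The other 3 comparisons called 0 under every alternative. Replicate numbers did not pair the samples (r from -0.118 to 0.141 over 18 same-numbered pairs, and 2 of 13 samples closest to their own number). With the block Sel1l lost both of its calls. The causes were not tested.

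Directions changed only in values that had not passed the test. For WT tunicamycin they were Derl2 (-0.15 with total count scaling, -0.17 with log2(FPKM + 0.1), -0.12 with the 3 log2(FPKM + 1) fits), Edem2 (-0.10 with total count scaling) and Herpud1 (-0.024 and -0.017 in those FPKM fits). For LKO against WT after tunicamycin they were Derl2 (0.078 and 0.055 in those FPKM fits) and Edem2 (0.049 with total count scaling). With vehicle Edem1 was at 0.016 and 0.019 in FPKM fits. Os9 in LKO was at 0.0097 with 14 libraries and 0.031 with the block. With the FPKM column of LKO vehicle 2 left out, values were 0.034 for Os9 and -0.0051 for Edem3 in LKO, 0.018 for Edem1 and -0.077 for Derl3 with vehicle, and 0.025 for the Derl1 interaction. Leaving out samples gave ranges that crossed 0 in WT for Derl2 (-0.051 to 0.14), Edem2 (-0.095 to 0.17) and Herpud1 (-0.076 to 0.59). They did so in LKO for Os9 (-0.067 to 0.067), Herpud1 (-0.53 to 0.056) and Edem3 (-0.0049 to 0.15). With vehicle they did for Derl3 (-0.38 to 0.65), Edem1 (-0.11 to 0.038) and Os9 (-0.037 to 0.098), after tunicamycin for Edem2 (-0.21 to 0.071) and in the interaction for Derl2 (-0.064 to 0.12). Derl3 had the fewest reads of the 10 genes, at 1 to 18 outside WT tunicamycin.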
